A study of Mus musculus with 11 samples.

Results

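The genes described here are transcription factors that hold cells in a mesenchymal state or drive epithelial-to-mesenchymal transition (EMT): Runx1 and Runx2, the basic helix-loop-helix (bHLH) factors Twist1, Twist2 and Tcf21, the homeobox factor Prrx1, the zinc-finger factors Osr1 and Snai2, and the zinc-finger homeodomain factors Zeb1 and Zeb2. They were chosen by name, as the probe sets whose only gene symbol is one of these 10, and 9 of the 10 were measured among 19938 genes tested, each by 1 probe set. Runx2 was not analysed here.

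EMT factors of the Snail, Zeb and Twist families bind E-box sequences in promoters and enhancers, and the Snail and Zeb proteins repress epithelial genes such as E-cadherin. Fibroblasts, which are mesenchymal cells, carry many of these factors as part of their ordinary programme. In the fibroblast lineage Prrx1, Twist2, Tcf21 and Osr1 mark mesenchymal precursors and their progeny, whereas RUNX proteins, which bind DNA together with the partner Cbfb, act in blood, bone and epithelial cells as well.

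Expression was measured on 11 microarrays of cells sorted directly from female mouse mammary glands. Normal glands came from FVB/n mice aged 8 weeks (2 arrays, D2 and D5). MMTV-PyMT mice, whose mammary epithelium carries the polyoma middle T oncogene, gave hyperplasia at 4 weeks (3 arrays, D6, D7 and D12), carcinoma at 9 weeks (3 arrays, D3, D4 and D10) and advanced carcinoma, termed late carcinoma in the sample labels, at 12 weeks (3 arrays, D8, D9 and D11). Each array held RNA of 1 cohort of several mice, and cells of every group were taken as CD140a+ (PDGFRα) and F4/80-. The sample labels give the cells as EpCAM- as well, whereas the methods name an EpCAM antibody for validations and not for this sort. Carcinoma and advanced carcinoma fibroblasts are together called cancer-associated fibroblasts (CAFs, 6 arrays) and were compared with normal and hyperplasia fibroblasts together (5 arrays). Each stage has an age of its own, so stage and age cannot be told apart. The MMTV-PyMT mice are FVB/N as well. Only the normal glands came from mice without the oncogene, so their genotype cannot be told apart from their stage. Normal and hyperplasia together hold both genotypes.

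All levels below are log2 expression values, so that a difference of 1 is a doubling, and the number of arrays limits their precision. A difference passed the test where limma's p, adjusted by Benjamini-Hochberg over all 19938 genes, was under 0.05. D2 and D11 are tied to each other: at every probe set their average equals the average of the remaining 9 arrays, to within 0.000144, so the arrays hold 10 independent columns and these 2 are not independent replicates. Fibroblast markers were present on every array, with a mean of 13 markers between 9.30 and 10.93 in CAFs and between 10.80 and 11.20 in the other fibroblasts, and the lowest of these means was that of carcinoma D4. Markers of other cell types moved with the groups as well. Luminal epithelial markers rose in CAFs (10 of 12, with 1 lower; array means 8.78 to 9.71 in CAFs and 6.82 to 8.15 in the others), and so did macrophage markers (11 of 11; 6.04 to 8.01 in CAFs and 4.65 to 5.90 in the others). Among the T and NK cell markers 4 of 9 fell and 1 rose, 3 of 5 B cell markers and 4 of 7 adipocyte markers fell, and 3 of 7 basal epithelial markers rose. Epcam averaged 9.33 ± 0.46 over CAF arrays (SD, n = 6) against 7.17 ± 0.78 elsewhere (SD, n = 5), and Adgre1, which encodes F4/80, averaged 6.46 ± 1.11 over CAF arrays against 4.14 ± 0.56 elsewhere. Both genes were chosen after their values were seen. No array level is a true 0, so the absence of a cell type cannot be read from these markers.

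Runx1 was higher in CAFs and the other 8 factors were lower on average. Of the 9 factors, 2 passed the test between CAFs and the other fibroblasts, Runx1 upwards and Tcf21 downwards, while 24.9% of all genes passed. The unadjusted p was under 0.05 for 8 of the 9, against 38.4% of all genes. The median difference of the 9 was -0.63, beside -0.04 over all genes tested. Bulk RNA cannot tell fewer cells of a type from less RNA per cell.

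**Figure D1:**
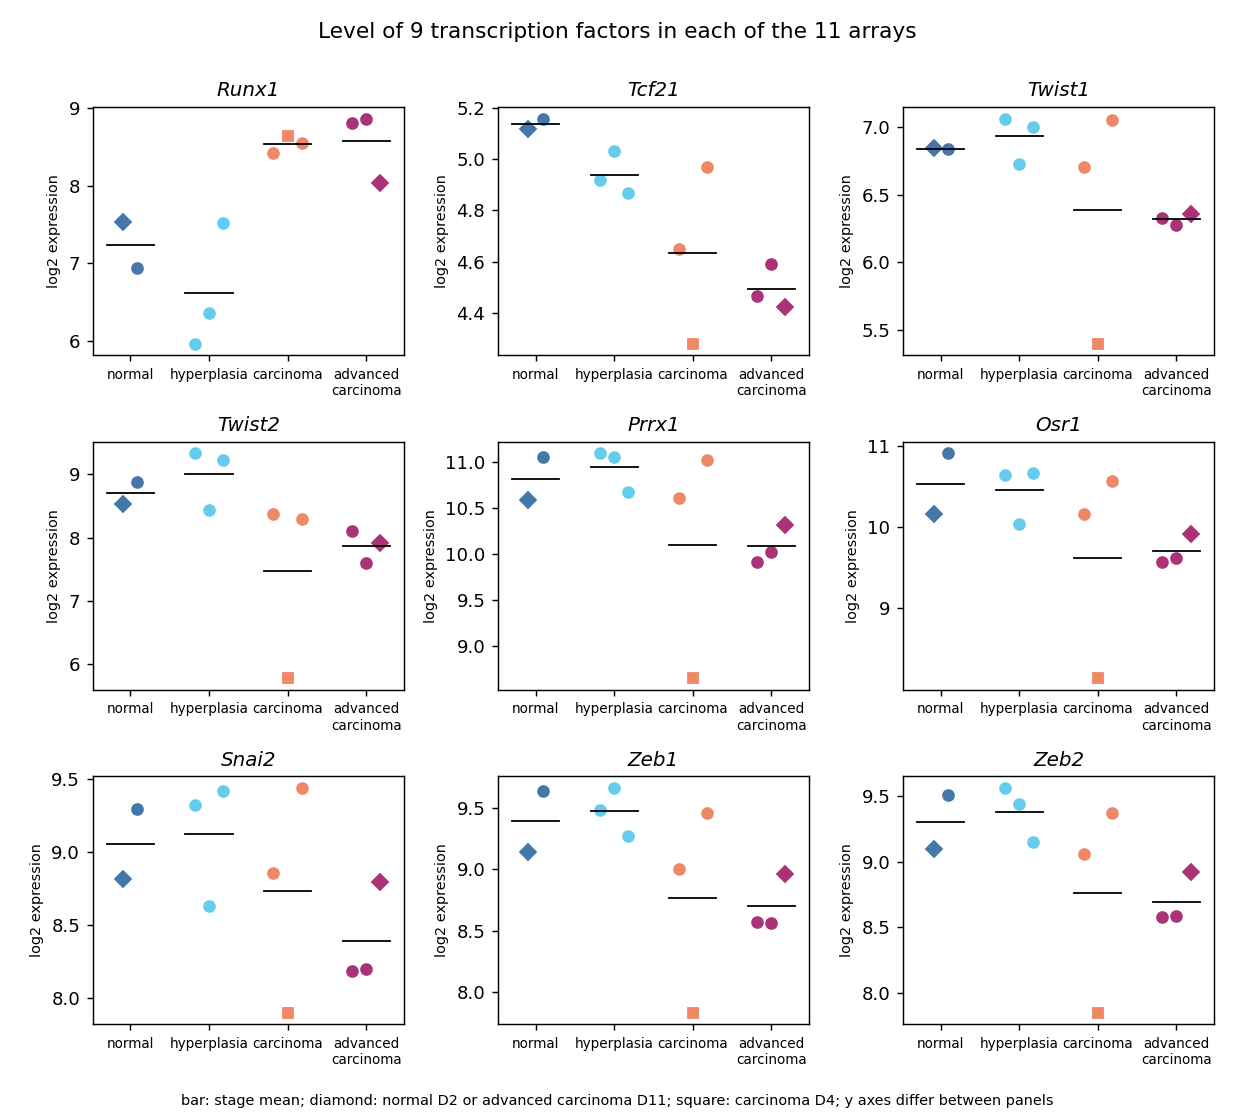
Log2 expression (y axes, which differ between panels) of each of the 9 factors on every array, by stage (x axis); points are arrays, black bars are stage means, diamonds are the tied arrays D2 and D11, and squares are carcinoma D4. Runx1 lay above 8 on all 6 CAF arrays and below 8 on the other 5, and D4 was the lowest array for the 8 factors other than Runx1.

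Runx1 encodes a factor best known from blood stem cell formation and also active in mammary luminal cells. It was at 8.42, 8.63 and 8.55 in carcinoma and 8.81, 8.86 and 8.03 in advanced carcinoma, against 7.54 and 6.94 in normal and 5.96, 6.36 and 7.52 in hyperplasia fibroblasts. All CAF arrays were above all others, while 14.9% of all genes had no overlap in either direction. The gap was narrow at its nearest point, between advanced carcinoma D11 and normal D2, which are the tied arrays. CAFs averaged higher by 1.68 (SE 0.28, adjusted p = 0.00211), a 3.22-fold difference. The difference was 1.96 without the tied arrays (adjusted p = 0.003), and it passed the test under all 24 alternatives tried, with differences of 1.40 to 2.23 and adjusted p-values of 8.36e-06 to 0.0409. The 2.23 came from centring arrays on their fibroblast marker mean, which raises the CAF difference of every gene. In that setting 1828 of 1919 genes called were higher, so it says little about Runx1.

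By stage, Runx1 averaged 7.24 ± 0.42 in normal glands (SD, n = 2), then 6.61 ± 0.81 in hyperplasia, 8.53 ± 0.10 in carcinoma, and at the advanced stage 8.57 ± 0.46 (SD, n = 3 each). Carcinoma was higher than hyperplasia by 1.92 (adjusted p = 0.0194; 9.25% of all genes passed) and advanced carcinoma by 1.95 (adjusted p = 0.0119; 14.5% of all genes passed), and Runx1 was the only one of the 9 factors to pass in either comparison. The unadjusted p was under 0.05 for 2 of the 9 in each, against 28% and 31.4% of all genes. Against normal glands the differences were 1.29 in carcinoma and 1.33 in advanced carcinoma, with adjusted p-values of 0.169 and 0.106. Hyperplasia and normal glands differed by -0.63 with an interval of -1.59 to 0.33, and advanced carcinoma and carcinoma by 0.03 with an interval of -0.82 to 0.89, so neither pair of neighbours in this order differed beyond its spread. The call against hyperplasia rested on single arrays. For carcinoma it was lost without D6 (adjusted p = 0.0721) or D7 (0.0676), and for advanced carcinoma without D7 (0.0508), D8 (0.0561) or D9 (0.058).

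Among normal and hyperplasia fibroblasts, the order of the arrays by Runx1 was that of their luminal marker means. D6 was lowest in both, at 5.96 for Runx1 and 6.82 for the luminal mean, then D7 (6.36 and 7.36), D5 (6.94 and 7.46), D12 (7.52 and 8.12) and D2 (7.54 and 8.15). The 6 CAF arrays did not keep the same order for both. Macrophage means of the normal and hyperplasia arrays had nearly the same order, with D7 and D5 exchanged: D6 4.65, D5 4.87, D7 4.88, D12 5.21 and D2 5.90. The CAF arrays highest in Runx1 were D4 (8.63), D8 (8.81) and D9 (8.86). Their macrophage means rose in that order (7.60, 7.84 and 8.01), and their luminal means fell (9.71, 9.45 and 9.41). The remaining CAF arrays went the other way for macrophages. From D11 (8.03) to D3 (8.42) and D10 (8.55) Runx1 rose, and macrophage means fell (6.40, 6.25 and 6.04). Luminal means of these arrays were 8.80, 9.12 and 8.78. The genes whose centred values lay nearest to those of Runx1 over the 11 arrays were Arhgef6, with a root mean square difference of 0.20, Krt8, a keratin of luminal cells (0.22), and Trf, transferrin (0.24). Runx1 itself varied by 0.96 about its own mean on this measure, and the median over all genes was 0.99. The part of luminal and macrophage RNA in the Runx1 difference was not tested.

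**Figure D2:**
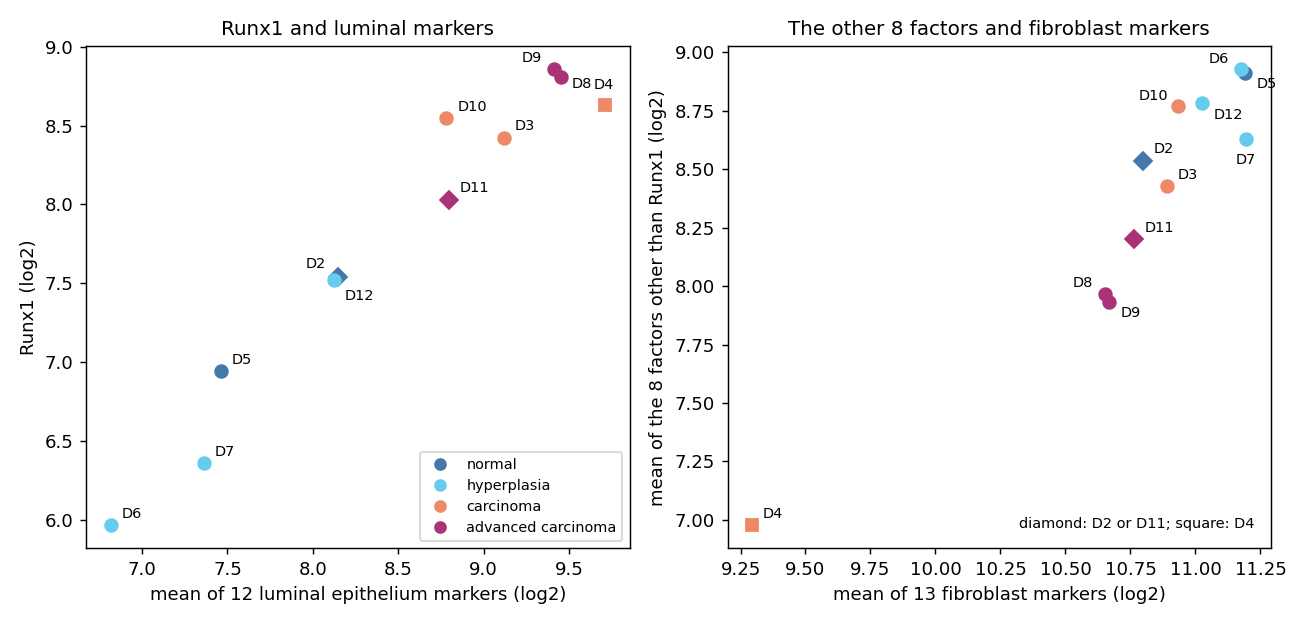
Left, Runx1 (y axis, log2) against the mean of 12 luminal epithelium markers (x axis, log2); right, the mean of the 8 factors other than Runx1 (y axis, log2) against the mean of 13 fibroblast markers (x axis, log2); each point is 1 array, coloured by stage. CAFs held the upper end of both axes on the left, and carcinoma D4 stood apart on the right, at 6.98 for the 8 factors and 9.30 for the fibroblast markers.

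Runx1 is transcribed from a pair of promoters, and its single probe set does not separate them. The RefSeq promoter windows of this gene are shown because it is the factor with the smallest p, read from 250 bases before to 50 bases after each start on the minus strand of GRCm38.p6. Capitals mark the RUNX core motif TGTGGT, here in its reverse form ACCACA.
Runx1 distal, chr16:92826025-92826324: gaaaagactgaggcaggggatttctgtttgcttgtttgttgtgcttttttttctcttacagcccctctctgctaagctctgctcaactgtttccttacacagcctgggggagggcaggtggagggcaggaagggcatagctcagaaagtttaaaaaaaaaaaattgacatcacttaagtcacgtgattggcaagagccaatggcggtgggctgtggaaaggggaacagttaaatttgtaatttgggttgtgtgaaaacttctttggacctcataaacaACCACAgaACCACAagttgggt
Runx1 proximal, chr16:92697280-92697579: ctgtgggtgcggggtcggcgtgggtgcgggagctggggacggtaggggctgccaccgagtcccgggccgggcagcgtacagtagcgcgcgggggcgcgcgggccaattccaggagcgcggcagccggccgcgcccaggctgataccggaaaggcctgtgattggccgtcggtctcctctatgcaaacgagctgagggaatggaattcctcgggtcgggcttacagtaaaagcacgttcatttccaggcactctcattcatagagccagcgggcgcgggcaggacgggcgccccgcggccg

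The distal window held TGTGGT at 2 places, 1 CAGGTG, the E-box form preferred by Snail and Zeb proteins, and 3 copies of the general E-box CANNTG, of which the CAGGTG is 1. None of these overlapped a TGTGGT. Searched on both strands, TGTGGT occurred in 16.8%, CAGGTG in 20.2% and CANNTG in 72.3% of all 32851 promoter windows of this length. Windows were found for 6 of the 9 measured factors (10 windows, with several for Zeb2, some of them overlapping, and for Runx1), and none of the 9 windows other than the distal one of Runx1 held any of these letters. A match describes the letters and is not a binding site.

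Tcf21, a bHLH factor of mesenchymal precursors in several organs, was lower in CAFs. It was at 4.65, 4.28 and 4.97 in carcinoma and 4.47, 4.59 and 4.42 in advanced carcinoma, against 5.12 and 5.16 in normal and 4.92, 5.03 and 4.87 in hyperplasia fibroblasts. Carcinoma D10 overlapped the hyperplasia arrays and the remaining CAF arrays lay below all others. The difference was -0.45 (SE 0.11, adjusted p = 0.0133), a 1.37-fold lower level, below the fold change of 1.5 that the study required. The stage means were 5.14 ± 0.03 in normal glands (SD, n = 2), 4.94 ± 0.08 in hyperplasia, 4.63 ± 0.34 in carcinoma, and 4.49 ± 0.09 at the advanced stage (SD, n = 3 each), and no single step between stages passed. Its levels lay below the median gene level of 5.64, and the files hold no detection calls. Over 23 alternatives its adjusted p was under 0.05 in 20 and reached 0.791, with differences of -0.55 to 0.09. The call was lost without the tied arrays (-0.40, adjusted p = 0.059) and without D4, D8 and D9. It was also lost with arrays centred on the fibroblast marker mean (0.09, adjusted p = 0.791). Ppp1r2, a phosphatase inhibitor subunit, Gngt2, a G protein subunit, and Bbs2, a subunit of a ciliary complex, had the values nearest to those of Tcf21, with root mean square differences of 0.08, 0.08 and 0.10 where Tcf21 itself varied by 0.29 and the median over all genes was 0.30.

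The other bHLH members, Twist1 and Twist2, are relatives that bind E-boxes with E proteins and keep mesenchymal precursors from differentiating. Twist2 was at 8.38, 5.78 and 8.29 in carcinoma and 8.11, 7.60 and 7.92 in advanced carcinoma, against 8.53 and 8.88 in normal and 9.34, 8.44 and 9.23 in hyperplasia fibroblasts. It did not overlap between the groups, as did 14.9% of all genes, although carcinoma D3 at 8.38 and hyperplasia D7 at 8.44 lay close together. The difference of -1.20 had the widest spread of the 9 (SE 0.42) and did not pass (adjusted p = 0.0582), and without D4 it was smaller and passed (-0.82, adjusted p = 0.0154). Over 24 alternatives its adjusted p was under 0.05 in 6 and reached 0.155, with differences of -1.34 to -0.66. Twist1 was at 6.71, 5.40 and 7.05 in carcinoma and 6.33, 6.28 and 6.36 in advanced carcinoma, against 6.84 and 6.84 in normal and 7.06, 6.73 and 7.001 in hyperplasia fibroblasts. Carcinoma D10 was as high as hyperplasia, whereas the 3 advanced carcinoma arrays were close to each other and below all normal and hyperplasia arrays. Its difference of -0.54 did not pass (adjusted p = 0.11).

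Prrx1 and Osr1, a homeobox and a zinc-finger factor of limb, dermal and connective tissue mesenchyme, followed the same arrays. Prrx1 was at 10.61, 8.65 and 11.02 in carcinoma and 9.92, 10.02 and 10.32 in advanced carcinoma, against 10.59 and 11.05 in normal and 11.10, 11.05 and 10.67 in hyperplasia fibroblasts. Osr1 was at 10.16, 8.14 and 10.56 in carcinoma and 9.58, 9.62 and 9.91 in advanced carcinoma, against 10.16 and 10.91 in normal and 10.65, 10.04 and 10.67 in hyperplasia fibroblasts. For both genes the carcinoma arrays D3 and D10 lay within the range of normal and hyperplasia arrays, D4 was far below it, and advanced carcinoma was below it on all 3 arrays. The CAF differences were -0.80 for Prrx1 (adjusted p = 0.11) and -0.82 for Osr1 (adjusted p = 0.12).

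Snai2, Zeb1 and Zeb2 are the repressors of the epithelial programme. Snai2 (Slug) was at 8.86, 7.89 and 9.44 in carcinoma and 8.18, 8.19 and 8.79 in advanced carcinoma, against 8.82 and 9.30 in normal and 9.32, 8.63 and 9.42 in hyperplasia fibroblasts. Zeb1 was at 8.999, 7.83 and 9.46 in carcinoma and 8.57, 8.56 and 8.96 in advanced carcinoma, against 9.15 and 9.64 in normal and 9.48, 9.67 and 9.28 in hyperplasia fibroblasts. Zeb2 was at 9.06, 7.84 and 9.38 in carcinoma and 8.57, 8.58 and 8.92 in advanced carcinoma, against 9.10 and 9.51 in normal and 9.57, 9.44 and 9.15 in hyperplasia fibroblasts. In each of the 3 the groups overlapped through carcinoma D10, and for Snai2 also through D3 and advanced carcinoma D11. The CAF differences were -0.54 for Snai2 (adjusted p = 0.164), -0.71 for Zeb1 (adjusted p = 0.0519) and -0.63 for Zeb2 (adjusted p = 0.0688). Zeb1 passed without D4 (-0.53, adjusted p = 0.0497). Over 24 alternatives its adjusted p was under 0.05 in 6 and reached 0.598, with differences of -0.86 to -0.17.

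**Figure D3:**
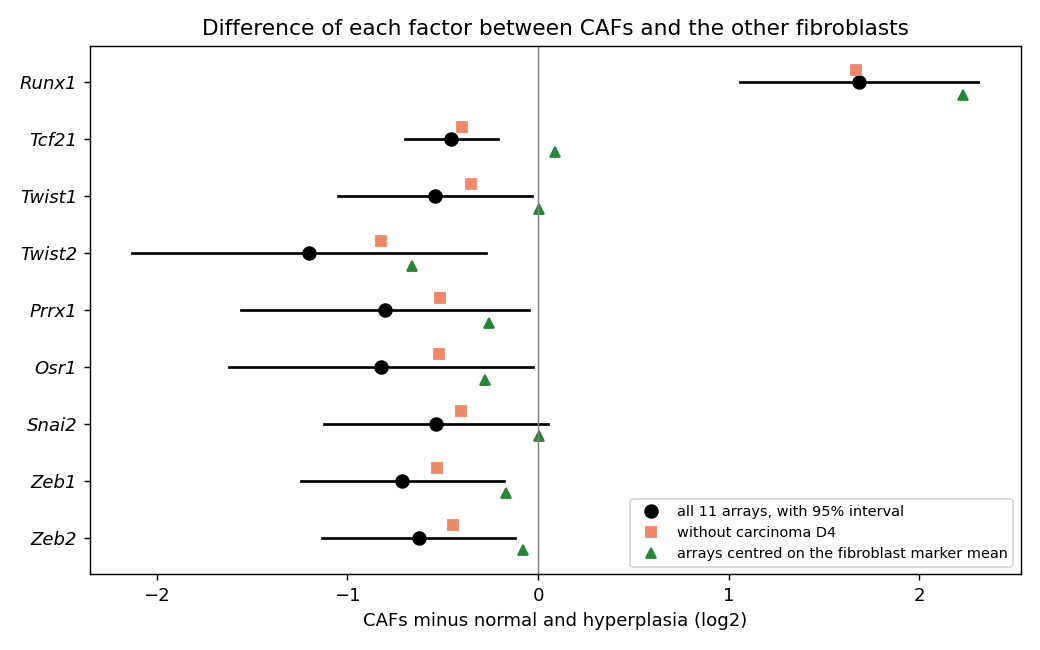
Difference of each factor between CAFs and normal with hyperplasia fibroblasts (x axis, log2); circles with 95% intervals use all 11 arrays, squares leave out carcinoma D4, and triangles use arrays centred on their mean of 13 fibroblast markers. Runx1 stood at 1.68, 1.67 and 2.23 in these settings, and the other 8 factors lay between -0.28 and 0.09 after centring apart from Twist2 at -0.66.

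The 8 factors other than Runx1 were thus lower in CAFs by 0.45 to 1.20 on average, and their lowest values came from 1 array. Carcinoma D4 was the lowest of the 11 arrays for all 8 of them, with a mean of 6.98 where the other CAF arrays held 7.93 to 8.77, and arrays of normal glands and hyperplasia 8.54 to 8.93. The same array had the lowest fibroblast marker mean and the highest luminal mean (9.71). The difference between the mean of the 8 factors and the fibroblast mean was -2.74 to -2.16 in CAFs and -2.57 to -2.24 in the others, ranges that overlap, with D8 and D9 lowest. By stage it was -2.46, -2.32 and -2.16 in carcinoma (D3, D4 and D10). In advanced carcinoma it was -2.69, -2.74 and -2.56 (D8, D9 and D11), beside -2.57 in hyperplasia D7, the lowest of the others. With each array centred on its fibroblast marker mean, 1 of the 9 factors passed, Runx1 at 2.23, as did 9.62% of all genes, and Twist1 (0.003), Tcf21 (0.09) and Snai2 (0.01) no longer lay below 0. This centring moved the median of all genes by more than 0.1, to 0.51, and it was chosen after seeing the data. Without D4, 4 factors passed between CAFs and the others, Twist2, Tcf21, Runx1 and Zeb1, while 23.6% of all genes did. Without carcinoma D10, the CAF array in which most of the 8 were highest, all but Osr1 passed (8 of 9, and 27.2% of all genes). The part of cell composition in the lower values was not tested.

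In advanced carcinoma the 8 factors lay below the normal glands on all 3 arrays. Against normal glands, each of the 9 factors had arrays without overlap, as did 48% of all genes, with differences of -0.83 to -0.52 for the 8 and 1.33 for Runx1. None passed in limma (5.61% of all genes did) and none in contrasts of a one-way analysis of variance, the kind of test the study used (1.24%), and 2 had an unadjusted p under 0.05, as did 22.6% of all genes: Tcf21 (-0.64, adjusted p = 0.0554) and Runx1. Without carcinoma D4, Twist1, Prrx1 and Tcf21 passed against normal glands (3 of 9, and 15.8% of all genes), without carcinoma D10 Tcf21 alone (6.59%) and without hyperplasia D12 Runx1 alone (5.12%). Against hyperplasia, 8 of 9 factors did not overlap, as 42.1% of all genes, and Snai2 was the exception through advanced carcinoma D11 and hyperplasia D7. The differences of the 8 lay between -1.12 and -0.44. Only Runx1 passed with all arrays, and without carcinoma D4, an array of neither group that enters the shared estimate of spread, 8 passed (all but Snai2; 25.2% of all genes did), among them Twist1 (-0.61, adjusted p = 0.00425), Twist2 (-1.12, 0.00832), Zeb1 (-0.78, 0.0156) and Zeb2 (-0.69, 0.0143). Fitting the arrays of these 2 stages alone gave the same count of 8, with 23.5% of all genes. Without carcinoma D10, Tcf21 and Runx1 passed against hyperplasia (2 of 9, and 15.4% of all genes), and without D7, D8 or D9 no factor did, with 6.58%, 4.74% and 4.47% of all genes passing.

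Between carcinoma and normal glands no factor passed in limma (0.938% of all genes did), none of all genes (0%) passed in the analysis of variance, and 2 factors had an unadjusted p under 0.05, as did 18% of all genes: Tcf21 (-0.50) and Runx1 (1.29). Without D10, Tcf21 passed in this comparison (2.94% of all genes did), and Tcf21 as well as Runx1 between carcinoma and hyperplasia (13.5%). Between hyperplasia and normal glands, and between advanced carcinoma and carcinoma, none of all genes (0%) passed in limma or in the analysis of variance, and no factor had an unadjusted p under 0.05, although 4.22% and 5.64% of all genes did. By the study's threshold, an unadjusted p below 0.05 and more than a 1.5-fold change, 6 factors were called between CAFs and the others (12.2% of all genes), 2 between advanced carcinoma and normal glands (10.6%), 1 between carcinoma and normal glands (6.98%), 2 between carcinoma and hyperplasia (10.5%), 1 between advanced carcinoma and hyperplasia (13%), and 0 between hyperplasia and normal glands (1%) and between advanced carcinoma and carcinoma (0.727%). The intervals were wide. The narrowest reached 0.37 to either side for hyperplasia against normal glands and 0.33 for advanced carcinoma against carcinoma, and the widest, for Twist2, 1.54 and 1.38.

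Genes that work with these factors were counted from lists. Twist and Tcf21 proteins pair with E proteins, and Id proteins sequester those. Of 7 such genes, 1 rose in CAFs and 2 fell. Id2 was higher (1.10, adjusted p = 0.000783), and Id4 (-0.42, adjusted p = 0.00908) and Id3 (-0.63, adjusted p = 0.0423) were lower. The E protein genes Tcf3, Tcf4 and Tcf12 did not pass. Of 12 paralogues and cofactors, Ctbp2, a corepressor recruited by Zeb proteins, rose by 0.51 (adjusted p = 0.0026) and the tendon factor Scx by 0.30 (adjusted p = 0.039). Runx1t1, a corepressor known as a RUNX1 fusion partner in human leukaemia, was lower (-1.06, adjusted p = 0.0409), and Osr2, the relative of Osr1, differed by -1.14 without passing (adjusted p = 0.0592). The medians of these 2 lists were -0.35 and -0.16. Over all genes 12% were higher and 12.8% lower. The balance of these calls depended on the scale: 2402 of 4961 were higher as deposited, and 1948 of 7062 after each array was centred on its median.

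Among 25 other transcription factors of mesenchymal cells, 3 rose and 8 fell, while 12% of all genes were higher and 12.8% lower. Sox9, the chondrocyte factor that luminal progenitors of the mammary gland also express, was at 8.87 in CAFs and 6.86 in the others (2.01, adjusted p = 0.00224), and the forkhead factor Foxc1 was higher by 1.03 (adjusted p = 0.0015). Klf4 (-0.76, adjusted p = 0.00561) and the Hedgehog effector Gli1 (-0.52, adjusted p = 0.00548) were lower. The median of the 25 was -0.08. The 8 lower calls did not hold in every setting: none was left after centring on the fibroblast markers or without D4, D8 and D9, with 4 and 3 genes higher and 9.62% and 9.57% of all genes called in these settings.

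Of 14 mesenchymal genes that EMT factors are known to raise, 2 passed, both upwards: thrombospondin 1 (Thbs1, 0.98, adjusted p = 0.0139) and tenascin C (Tnc, 1.62, adjusted p = 0.0215). This count was near the share of all genes, of which 12% passed upwards and 12.8% downwards. The median of the list was -0.09. Mmp14, a membrane-bound protease, differed by -0.66 (adjusted p = 0.0874) and Tagln, an actin-binding protein, by 0.51 (adjusted p = 0.145). Without the tied arrays neither of the 2 passed (18.7% of all genes did). Of 7 skeletal genes regulated by Runx2 in bone and cartilage, 3 passed, all upwards, while 12% of all genes passed upwards. The median of the 7 was 0.02. Phex, next by p, differed by -0.13 (adjusted p = 0.112), and neither it nor the remaining genes passed. Mmp13, a collagenase, averaged 6.91 ± 1.31 over CAF arrays (SD, n = 6) against 3.68 ± 0.20 elsewhere (SD, n = 5), higher by 3.23 (adjusted p = 0.00197), and Col10a1 and Alpl rose by 1.17 (adjusted p = 0.00507) and 1.06 (adjusted p = 0.00707).

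Of 20 epithelial genes that Zeb and Snail proteins repress, 19 rose in CAFs, with a median of 1.68 over the list. Esrp1, an epithelial splicing regulator, averaged 8.53 in CAFs and 5.73 in the others, higher by 2.80 (adjusted p = 0.0004). Grhl2, a factor that opposes Zeb1, rose by 2.10 (adjusted p = 0.000361), and the tight junction genes Ocln and Marveld2 by 1.76 (adjusted p = 0.000483) and 1.598 (adjusted p = 0.000318). These 4 were named for the smallest p of the list, so their lack of overlap between the groups follows largely from that choice. Of all genes 14.9% did not overlap, and in this list Elf3, Dsp, Ovol1 and Ovol2 did overlap. Ovol2, a repressor of Zeb1, was the gene that did not pass (0.27, adjusted p = 0.0511), and is named after its value was seen. Without D4, D8 and D9, 16 of the 20 rose, while 9.57% of all genes passed. Epithelial cells express these genes, and the list mean moved with the luminal marker mean across arrays: among normal and hyperplasia fibroblasts both means had the order that Runx1 has. The list mean was 6.25 to 7.45 in CAFs and 4.62 to 5.64 in the others, and the highest was that of carcinoma D4. The part of luminal RNA in this result was not tested.

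MicroRNAs of the miR-200 family target Zeb1 and Zeb2 transcripts, and Zeb proteins repress the miR-200 genes in turn. Their mature sequences are shown because the family's seed, bases 2 to 8 in capitals, guides pairing with target transcripts. They are from RefSeq, GRCm38.p6.
miR-200a-3p: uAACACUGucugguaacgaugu
miR-141-3p: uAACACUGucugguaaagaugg
miR-200b-3p: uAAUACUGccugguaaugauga
miR-200c-3p: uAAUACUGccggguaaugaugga
miR-429-3p: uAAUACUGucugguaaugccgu

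The family falls into the seeds AACACUG (miR-200a and miR-141) and AAUACUG (miR-200b, miR-200c and miR-429). The gene of miR-429 was not measured here. Of 5 probe sets measured for the other genes of this family and for miR-205, none passed between CAFs and the others in limma (24.9% of all genes did) or in the analysis of variance (21.7%). For 1 of them, Mir200b, the unadjusted p was under 0.05, as it was for 38.4% of all genes. Mir200b averaged 4.57 in CAFs and 4.08 in the others (0.49, adjusted p = 0.118), and Mir200a 4.83 and 4.67 (0.17, adjusted p = 0.202). Mir200c and Mir141 differed by 0.08 and -0.06 (adjusted p-values 0.518 and 0.402). In advanced carcinoma against hyperplasia 2 of the 5 were higher (14.5% of all genes passed), Mir200b by 0.91 (adjusted p = 0.0338) and Mir200a by 0.33 (adjusted p = 0.0446). Neither overlapped between these stages, where 42.1% of all genes did not overlap. Between CAFs and the others 1 of the 5 rose without carcinoma D10 (27.2% of all genes passed). In the remaining stage comparisons none passed. These probe sets read precursor transcripts and do not measure the mature forms.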

How the data were processed

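RNA of CD140a+ cells sorted from mammary glands was hybridised to Affymetrix Mouse Gene 1.0 ST arrays, 11 in all. Normalisation and summary by the authors used robust multi-array averaging (RMA) in Partek 6.5, and the deposited values are log2 expression for 35399 probe sets, with medians per array of 5.28 to 5.39. RMA leaves no counts, so depth does not apply.

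A probe set was named where the platform annotation pairs it with 1 symbol (21789; 1621 had several and 11989 none here), and the brightest probe set was kept for the 999 genes with more than 1. This left 19938 genes. Groups followed the sample labels. Differences were tested with limma 3.58.1 (R 4.3.3), once in a fit of 4 stages with 7 residual degrees of freedom and once in a fit of CAFs against normal with hyperplasia (9 degrees), adjusted by Benjamini-Hochberg at 0.05. The study's own rule, one-way ANOVA at p below 0.05 with more than a 1.5-fold change, served as alternatives: its test with adjusted p-values, and its threshold on limma's p-values. The pipeline was tested on simulated data. Nothing in the methods or labels states a step that ties D2 to D11, and the fits were repeated with a term for the pair and without it.

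The members and the gene lists were chosen with earlier results of these data known. All measured members are named, with up to 4 genes per list by smallest p in CAFs, and the 3 genes nearest in pattern to each member that passed, by root mean square difference of centred values over the 11 arrays, leaving aside predicted genes, Riken clones and small RNAs. The centring on fibroblast markers and the fit without D4, D8 and D9, the CAF arrays with the highest macrophage marker means, were added after seeing the data. Sequences are from RefSeq.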

Additional observations from a re-analysis of the deposited data

Results flagged for a closer look

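Twist2 in CAFs had 1 array far from the others: carcinoma D4 was at 5.78 and the next lowest CAF array, advanced carcinoma D9, at 7.60. The gap was 0.701 of the whole range of the 6 arrays, over the limit of 0.625 for a group of this size. Of 18 groups examined, this was the only one past its limit, and chance alone passes about 1 in 20. D4 was also the lowest CAF array for Prrx1, Osr1, Twist1, Tcf21, Snai2, Zeb1 and Zeb2, and its mean of 13 fibroblast markers, 9.30, was below that of every other array. The part of cell composition in this value was not tested.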

How the results depend on the processing

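No paired analysis was possible because the replicate labels, D2 to D12, are each used once. Between CAFs and the others, where 2 factors and 24.9% of all genes passed, the count was 5 with median-centred arrays (35.4% of all genes) or array weights (29.2%), 6 at the study's threshold (12.2%), and 1 without D2 and D11 (18.7%), with fibroblast-centred arrays (9.62%) or without D4, D8 and D9 (9.57%). Leaving out 1 array gave 2 to 8, with 18.6% to 27.2% of all genes (8 without carcinoma D10). The shares below are also of all genes. For advanced carcinoma against normal glands, where 0 passed (5.61%), it was 1 with median centring (6.52%), quantile normalization (5.58%) or limma-trend (5.65%), 2 with array weights (19.6%) or the study's threshold (10.6%), 3 with the arrays of these groups alone (14.3%), and 0 to 3 with 1 array left out (0.201% to 15.8%). For carcinoma against normal glands (0; 0.938%) it was 1 at the study's threshold (6.98%) and 0 to 1 with 1 array left out (0% to 2.94%). For carcinoma against hyperplasia (1; 9.25%) it was 0 with ANOVA contrasts (4.3%), with these groups alone (0.0251%) or without D4, D8 and D9 (3.66%), 2 at the study's threshold (10.5%), and 0 to 2 with 1 array left out (1.78% to 13.5%). For advanced carcinoma against hyperplasia (1; 14.5%) it was 2 with median centring (20.3%), 8 with array weights (31.3%) or these groups alone (23.5%), 0 without D4, D8 and D9 (3.91%), and 0 to 8 with 1 array left out (4.47% to 25.2%). The comparisons of hyperplasia with normal glands and of advanced carcinoma with carcinoma gave 0 in every setting run, where at most 1% and 6.53% passed. The cause of these shifts was not tested. Signs turned only under fibroblast centring, which raises every CAF difference by the fall of the marker mean: Twist1 0.00288, Tcf21 0.0889, Snai2 0.0071, Id4 0.128, Id1 0.144, Gli1 0.0225, Phex 0.412, Ppp1r2 0.149, Gngt2 0.0653 and Bbs2 0.0919. Of 1523 values of single genes under the alternatives, 1355 kept direction and call, 74 lost the call, 84 gained it and these 10 turned sign. Of 408 counts over 17 gene lists, 94 moved by more than 1.5 times.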
